A study of Bos taurus with 8 samples.

Results

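The genes described here are 6 genes of steroid synthesis, STAR, CYP11A1, FDX1, FDXR, HSD3B1 and HSD17B1, taken by name from the 18825 rows of an expression table of single cells from bovine embryos. All 6 were found in the table, and each symbol matched 1 gene of a RefSeq gene table and overlapped 0 other genes there. The embryos were wildtype and were collected 6, 7, 8 and 9 days after fertilization, and the cells were pooled by barcode into 6 libraries, numbered as replicates 1 to 6. The authors' cell table puts the 286 measured cells into 7 classes: Morula on day 6 (58 cells), EB on day 7 (39 cells), MB TE and MB ICM on day 8 (37 and 51 cells), and LB TE, LB PE and LB EPI on day 9 (31, 25 and 45 cells). TE stands for trophectoderm, ICM for inner cell mass, PE for primitive endoderm and EPI for epiblast; EB, MB and LB keep the cell table's own spelling. The labels name no embryo, sire or sex for a cell, and they do not say which embryos went into which library, so the library was the replicate, and a p-value reflects spread from library to library that may be technical.

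The trophectoderm is the outer cell layer of the blastocyst and gives rise to the fetal part of the placenta, an organ that makes steroid hormones in cattle as in other mammals. Steroid synthesis starts when STAR moves cholesterol to the inner mitochondrial membrane, where the side-chain cleavage enzyme CYP11A1 turns it into pregnenolone. CYP11A1 draws its electrons from NADPH through the flavoprotein FDXR (ferredoxin reductase) and the iron-sulfur protein FDX1 (ferredoxin). HSD3B1, a 3-beta-hydroxysteroid dehydrogenase, converts pregnenolone to progesterone, and HSD17B1 converts estrone to the more active estradiol late in the pathway.

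CYP11A1 and HSD3B1, the enzymes for the steps from cholesterol to progesterone, had their highest mean level in day 9 trophectoderm and passed the test against both other day 9 classes. Neither was called between day 9 and day 8 trophectoderm, and for HSD3B1 the averages of the 2 days overlapped. FDXR passed it against the epiblast, and HSD3B1 alone passed it in day 8 trophectoderm against the inner cell mass. STAR, FDX1 and HSD17B1 passed it in no comparison of this fit. HSD17B1 was read in 10 of 31 cells of day 9 trophectoderm and 3 of 37 cells of day 8 trophectoderm. Levels are in CPM, the reads of a gene per 1000000 assigned reads of a cell, as the mean over the cells that a library gave to a class. Only means of at least 3 cells were used, which gave 16 averages. Changes were tested with limma on log2(CPM + 10) over 12538 genes, with p-values adjusted over all of them by the Benjamini-Hochberg method and an adjusted p under 0.05 taken as a call. The added 10 CPM understates the log2 change of genes with low values.

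Read depth, class markers and a cell that stood apart were looked at first. The libraries held 6410349 to 9812783 assigned reads. The median cell had 141435 reads in Morula, 87902 in EB, 198116 in MB TE, 132481 in MB ICM, 196521 in LB TE, 39210 in LB PE and 196981 in LB EPI. All cell barcodes came from a set of 48, of which 46 occurred in all 6 libraries and 2 in 5 of them, so a barcode names a cell only together with its library. The 14 trophectoderm markers summed to 34879 to 45753 CPM in LB TE and 31462 to 59157 CPM in MB TE, and to at most 6801 CPM in an average of any other class. Most of each trophectoderm sum came from KRT8 and KRT18, at means of 23305 and 8978 CPM in LB TE and 21749 and 17325 CPM in MB TE. Single markers differed: CDX2 had means of 40.1 CPM in LB TE and 1.03 CPM in LB EPI, but TFAP2C had 129 and 183 CPM. SOX17, a marker of primitive endoderm, was at 0 in LB PE, while the 9 markers of that list summed to 6074 to 6612 CPM there. Most of that sum was FN1, at a mean of 4593 CPM. PDGFRA had means of 299 CPM in LB PE and 19.9 CPM in LB EPI, but HNF4A had 179 and 192 CPM. The authors' classes were made from these same cells, by a method not given in the sources used here, so a difference between classes is not independent evidence that they differ.

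A single Morula cell of replicate 6, with 77442 reads, carried high levels of genes known from the granulosa cells of the ovarian follicle. The 13 cumulus and granulosa markers summed to 39940 CPM in it, against a median of 47.6 CPM and a highest sum of 699.1 CPM in the other 44 Morula cells of that library. The cell was picked because this sum passed 10000 CPM, so the contrast is a description. Most of the sum was INHBA, at 32825 CPM. INHA stood at 5966 CPM, both of them inhibin subunits, and CYP19A1, the aromatase, at 723.1 CPM. FOXL2 had 284.1 CPM, AMH 103.3 CPM, FSHR 25.8 CPM and NR5A1 12.9 CPM. HAS2, PTX3, TNFAIP6, GREM1, LHCGR and AMHR2 were at 0 in the cell. The same cell had 1201 CPM of CYP11A1, 322.8 CPM of HSD17B1 and 206.6 CPM of FDXR, with HSD3B1 and STAR at 0. It held 91.7% of the CYP11A1 in its average, which was 29.1 CPM with the cell, and the other 44 cells averaged 2.48 CPM. For HSD17B1 the average was 18.0 CPM with the cell and 11.1 CPM in the other 44 cells. In trophectoderm the same 13 markers summed to 10.7 to 11.9 CPM in LB TE and 8.97 to 23.9 CPM in MB TE. AMH, GREM1, NR5A1 and AMHR2 were at 0 in LB TE, and INHA, LHCGR and NR5A1 at 0 in MB TE. Other markers were read there. FSHR and AMH had their highest class means in MB TE, at 8.26 and 2.99 CPM. In single MB TE averages FSHR ran from 0 to 16.0 CPM and AMH from 0 to 5.86 CPM. CYP19A1 was read in every trophectoderm average, at 0.312 to 3.54 CPM in LB TE and 2.04 to 3.69 CPM in MB TE.

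**Figure D1:**
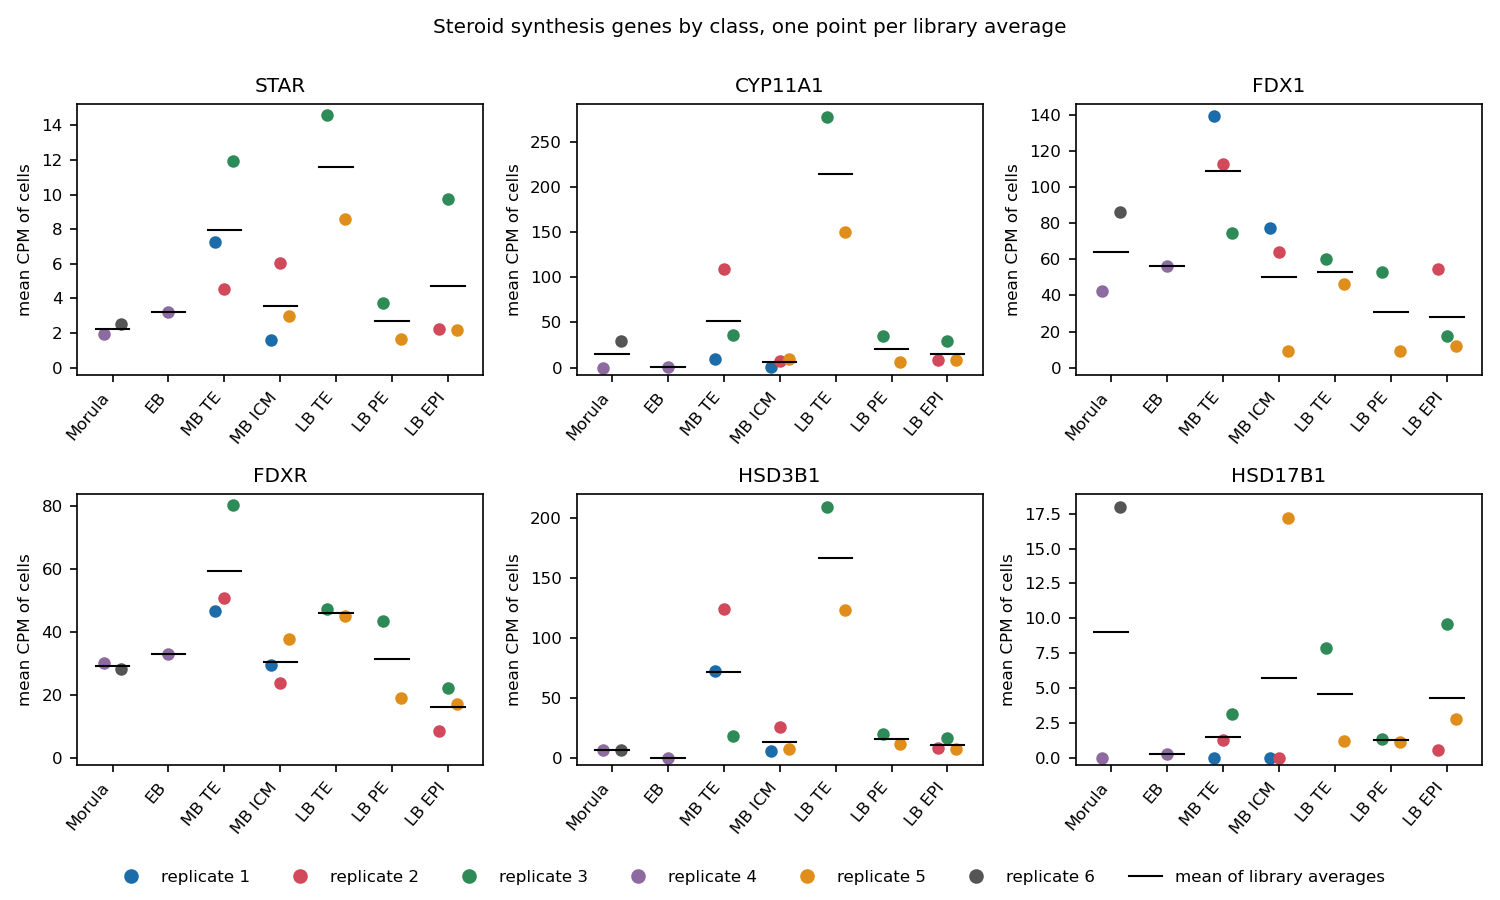
Level of each of the 6 genes (vertical axis, mean CPM of the cells, a separate linear scale per gene) in the 7 classes (horizontal axis), with a point for each library average and a bar at the mean of the averages. For CYP11A1 the LB TE averages of 278 and 150 CPM lie above the points of every other class; the Morula point of replicate 6 for CYP11A1 rests largely on 1 cell.

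STAR, the cholesterol carrier at the head of the pathway, was low throughout. Its LB TE averages were 14.6 CPM in replicate 3 and 8.57 CPM in replicate 5. The LB PE averages were 3.73 and 1.63 CPM in the same libraries, and the LB EPI averages were 2.21, 9.76 and 2.15 CPM in replicates 2, 3 and 5. Both LB TE averages lay above both LB PE averages, but the LB EPI average of replicate 3 lay above the LB TE average of replicate 5. On day 8 the MB TE averages were 7.28, 4.55 and 12.0 CPM in replicates 1, 2 and 3, against 1.61, 6.04 and 2.97 CPM in MB ICM of replicates 1, 2 and 5, so these groups overlapped as well. EB had 3.23 CPM and the Morula averages were 1.97 and 2.54 CPM. In the order of mean level LB TE came first (11.6 ± 4.26 CPM, SD, n = 2) and MB TE second (7.93 ± 3.75 CPM, n = 3), and each class overlapped its neighbour in that order. No STAR difference passed the test. The log2 change was 0.76 (SE 0.32, limma adjusted p = 0.178) for LB TE against LB PE, 0.55 (SE 0.29, limma adjusted p = 0.236) for LB TE against LB EPI and 0.33 (SE 0.26, limma adjusted p = 0.508) for MB TE against MB ICM. With cells averaged on the log scale, limma called STAR in LB TE against LB PE (0.67, adjusted p = 0.0405). STAR reached the 10 CPM needed for a test only in trophectoderm averages, so that call is a description.

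CYP11A1, the enzyme that commits cholesterol to steroids, averaged 278 CPM in LB TE of replicate 3 and 150 CPM in LB TE of replicate 5. In LB PE of the same libraries it had 34.8 and 6.37 CPM, and in LB EPI of replicates 2, 3 and 5 it had 8.03, 29.2 and 8.53 CPM. The groups did not overlap: the lower LB TE average was above the highest value of either other day 9 class. CYP11A1 was higher in LB TE than in LB EPI by 3.22 on the log2 scale (SE 0.62, limma adjusted p = 0.00166) and higher than in LB PE by 2.99 (SE 0.67, limma adjusted p = 0.0119). The difference within a library was 2.88 and 3.11 against LB EPI and 2.68 and 3.29 against LB PE, for replicates 3 and 5. The call against LB EPI held whichever library was left out. The call against LB PE was lost without replicate 3 (log2 change 3.29, limma adjusted p = 0.0764) and without replicate 5 (2.68, limma adjusted p = 0.211), when a single library was left with both classes. With 1 CPM added the call of CYP11A1 against LB PE was also lost (3.66, limma adjusted p = 0.0824), as it was with limma-voom (3.50, adjusted p = 0.164). The median cell had 196521 reads in LB TE and 39210 in LB PE, and the part of depth in this comparison was not tested.

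In day 8 trophectoderm CYP11A1 varied between libraries. The MB TE averages were 10.2, 109 and 35.8 CPM in replicates 1, 2 and 3, over 21, 12 and 3 cells. The MB ICM averages were 0.668, 7.14 and 9.57 CPM in replicates 1, 2 and 5. Every MB TE average lay above every MB ICM average, though the lowest MB TE value of 10.2 CPM was close to the highest MB ICM value. The log2 change of 1.53 (SE 0.56, limma adjusted p = 0.0978) did not pass the test. It was 0.85 without replicate 2 (limma adjusted p = 0.499), and with cells averaged on the log scale it was called (1.25, limma adjusted p = 0.0332). The markers IFNT3, which encodes the pregnancy-recognition signal interferon tau, and PAG2, a pregnancy-associated glycoprotein, differed between the same libraries: IFNT3 had 34.3 CPM in MB TE of replicate 1 and 402 CPM in replicate 2, and PAG2 had 116 and 300 CPM. What set these libraries apart was not tested. EB had 0.530 CPM of CYP11A1, from 5 reads in 1 cell of 35, and Morula had 0.181 CPM in replicate 4 and 29.1 CPM in replicate 6, most of it from the cell described above.

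FDX1, the ferredoxin that hands electrons to mitochondrial P450 enzymes, was broadly present and was not at its highest on day 9. MB TE had 140, 113 and 74.8 CPM in replicates 1, 2 and 3, and MB ICM had 77.1, 63.9 and 9.38 CPM in replicates 1, 2 and 5. The ranges overlapped, since the MB TE average of replicate 3 was below the MB ICM average of replicate 1, but in both libraries with the 2 classes MB TE was higher, by 0.78 and 0.73 on the log2 scale. On day 9 LB TE had 60.4 and 46.1 CPM, LB PE 53.1 and 9.15 CPM, and LB EPI 54.8, 17.6 and 11.9 CPM, again with overlap. Within replicates 3 and 5 LB TE was above LB EPI by 1.35 and 1.36 on the log2 scale. EB had 56.5 CPM and Morula 42.3 and 86.4 CPM. The log2 change was 1.08 (SE 0.48, limma adjusted p = 0.177) for MB TE against MB ICM, 1.03 (SE 0.53, limma adjusted p = 0.230) for LB TE against LB EPI, and 0.86 (SE 0.57, limma adjusted p = 0.460) for LB TE against LB PE. The difference from LB EPI was called with a fixed replicate block (1.32, limma adjusted p = 0.0258) and with limma-voom (1.38, adjusted p = 0.0313).

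FDXR, the reductase that loads FDX1 with electrons, passed the test against the epiblast alone. It averaged 47.3 and 45.0 CPM in LB TE of replicates 3 and 5. It averaged 8.53, 22.3 and 17.1 CPM in LB EPI of replicates 2, 3 and 5. The 2 groups did not overlap, and the log2 change was 1.08 (SE 0.34, limma adjusted p = 0.0363). This call was lost without replicate 1, 2, 3 or 5, with limma adjusted p-values of 0.0522, 0.146, 0.0869 and 0.147, while the log2 change stayed between 0.92 and 1.201. It was also lost with a fixed replicate block (0.95, limma adjusted p = 0.0665) and with no block (1.15, limma adjusted p = 0.0563). LB PE had 43.4 and 19.1 CPM, just under LB TE in replicate 3, and the log2 change of 0.51 (SE 0.37, limma adjusted p = 0.502) did not pass. On day 8 MB TE had 46.8, 50.9 and 80.4 CPM and MB ICM had 29.6, 23.8 and 37.7 CPM, without overlap, at a log2 change of 0.71 (SE 0.31, limma adjusted p = 0.167). EB had 32.9 CPM and Morula 30.2 and 28.3 CPM, between the trophectoderm and epiblast values.

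HSD3B1, the enzyme that makes progesterone, followed a course much like that of CYP11A1. LB TE had 210 CPM in replicate 3 and 124 CPM in replicate 5. LB PE had 19.9 and 11.6 CPM in those libraries, and LB EPI had 7.72, 16.5 and 7.25 CPM in replicates 2, 3 and 5. The LB TE averages stood clear of both other classes. HSD3B1 was higher in LB TE than in LB EPI by 3.20 on the log2 scale (SE 0.49, limma adjusted p = 0.000106) and higher than in LB PE by 2.76 (SE 0.52, limma adjusted p = 0.00248). Within replicates 3 and 5 the difference was 3.05 and 2.96 against LB EPI, and 2.88 and 2.63 against LB PE. The call against LB EPI held whichever library was left out, and that against LB PE was lost without replicate 5 (2.88, limma adjusted p = 0.0912).

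On day 8 HSD3B1 had 72.7, 124 and 18.2 CPM in MB TE of replicates 1, 2 and 3. MB ICM had 5.54, 25.6 and 7.10 CPM in replicates 1, 2 and 5. The MB TE average of replicate 3, over 3 cells and 8 reads, fell below the MB ICM average of replicate 2, while in replicates 1 and 2 MB TE was higher by 2.41 and 1.92 on the log2 scale. That MB ICM average rests in good part on 1 cell of 248 CPM, the next highest cell having 42.0 CPM. HSD3B1 was the member called between the day 8 classes, with a log2 change of 1.65 (SE 0.44, limma adjusted p = 0.0186). The call was lost without replicate 1 (limma adjusted p = 0.203), replicate 2 (0.0827) or replicate 5 (0.0765), with log2 changes of 1.25, 1.51 and 1.63. EB had no HSD3B1 read in the 35 cells of its average, and Morula had 6.08 and 6.72 CPM, from reads in 4 cells of 13 and 4 of 45.

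HSD17B1, the estradiol-forming enzyme, gave few reads. LB TE had 7.89 and 1.22 CPM, LB PE 1.35 and 1.13 CPM, and LB EPI 0.536, 9.58 and 2.80 CPM, so the day 9 classes overlapped. MB TE had 0, 1.29 and 3.11 CPM, and MB ICM had 0, 0 and 17.2 CPM, the last value resting on 15 reads in 1 cell of 5. Reads were found in 10 of 31 LB TE cells and 3 of 37 MB TE cells, and the log2 change of -0.04 for LB TE against LB EPI (SE 0.41, limma adjusted p = 0.983) was near 0. No difference in HSD17B1 passed the test, and how large a difference could be found with so few reads was not tested.

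Counted over the members, LB TE against LB EPI gave 3 of 6 called higher and 0 lower, where 15.2% of all tested genes were called in either direction, 8.26% higher and 6.9% lower. LB TE against LB PE gave 2 of 6 higher and 0 lower, against 5.85% of all genes in either direction, 3.39% higher and 2.46% lower. MB TE against MB ICM gave 1 of 6 higher and 0 lower, against 10.1% of all genes in either direction, 5.97% higher and 4.11% lower, and 1 of 6 cannot be told apart from that share. Whether any of these counts, on day 8 or day 9, exceeds its share was not tested. The members were also chosen with earlier results of these data known, so the counts are a description. The median log2 change of the 6 members was 1.06, 0.81 and 0.89 in these comparisons, beside -0.04, -0.02 and -0.04 over all tested genes. These medians include STAR, which passed the filter only through trophectoderm averages, so they are a description too. LB TE enters both day 9 comparisons, so they share samples.

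**Figure D2:**
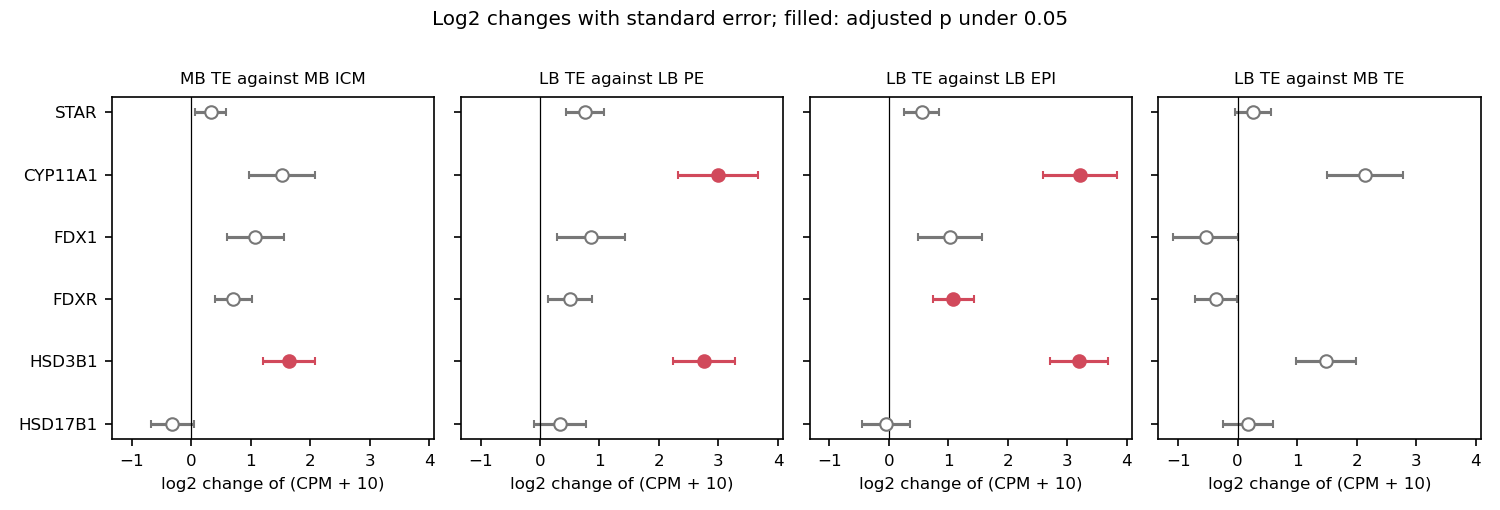
Log2 change of CPM + 10 (horizontal axis) for each of the 6 genes (rows) in 4 comparisons, with bars of 1 standard error from limma and filled points where the adjusted p is under 0.05. CYP11A1 and HSD3B1 stand near 3 in both day 9 comparisons, at 2.99 and 2.76 against LB PE and 3.22 and 3.20 against LB EPI, while HSD17B1 stays near 0.

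Trophectoderm of the 2 days was compared next. CYP11A1 had 278 and 150 CPM in LB TE, against 10.2, 109 and 35.8 CPM in MB TE, and the groups did not overlap. HSD3B1 had 210 and 124 CPM in LB TE, against 72.7, 124 and 18.2 CPM in MB TE, and the groups overlapped, since the LB TE average of replicate 5 (123.9 CPM) was just under the MB TE average of replicate 2 (124.4 CPM). The log2 changes of 2.14 for CYP11A1 (SE 0.64, limma adjusted p = 0.347) and 1.49 for HSD3B1 (SE 0.50, limma adjusted p = 0.469) did not pass the test. Without replicate 3 they were 1.55 and 0.42, both at a limma adjusted p of 1. In limma 0 of the 6 members were called, 2 had an unadjusted p under 0.05, and 0.191% of all genes were called. When cells were averaged on the log scale instead, limma called CYP11A1 (2.35, adjusted p = 0.00753). FDX1 and FDXR had log2 changes of -0.54 (SE 0.55) and -0.36 (SE 0.35), both at a limma adjusted p of 1. The 2 classes share replicate 3 alone, where MB TE has 3 cells; there the difference was 2.65 for CYP11A1 and 2.96 for HSD3B1.

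The gain of day 9 over day 8 in the difference between trophectoderm and the inner class (ICM or EPI) was tested directly, as LB TE minus LB EPI against MB TE minus MB ICM. It was 1.69 on the log2 scale for CYP11A1 (SE 0.83, limma adjusted p = 0.536) and 1.55 for HSD3B1 (SE 0.65, limma adjusted p = 0.420). In limma 0 of 6 members were called and 1 had an unadjusted p under 0.05, where 0.367% of all genes were called. A call on day 9 and none on day 8 therefore does not show that the 2 days differ.

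For the step into day 8, MB TE was set against EB, whose single average of 35 cells comes from replicate 4 and is assumed to vary like the other classes. No MB TE average comes from replicate 4, and the effects of age and of library cannot be told apart here. HSD3B1 had 72.7, 124 and 18.2 CPM in MB TE and 0 reads among the 3699590 of the EB average. A count of 0 allows up to 3 reads there, or 0.811 CPM, counting error alone being covered. In limma the log2 change of 2.71 (SE 0.66, adjusted p = 0.0533) depends on the added 10 CPM and just missed the threshold; without replicate 3 it was called (3.37, adjusted p = 0.0220). CYP11A1 had 10.2, 109 and 35.8 CPM in MB TE, against 0.530 CPM in EB (log2 change 1.97, SE 0.85, limma adjusted p = 0.386). In all, limma called 0 of 6 members, with 2 at an unadjusted p under 0.05, and 0.997% of all genes. Between EB and Morula limma called 0 of 6 members, none with an unadjusted p under 0.05, and 0.0798% of all genes. HSD3B1 had 0 reads in EB, against 6.08 and 6.72 CPM in Morula (log2 change -0.71, SE 0.66, limma adjusted p = 1), and 1 cell of 251 CPM held 83.1% of the sum in Morula of replicate 6. CYP11A1 had 0.530 CPM in EB, against 0.181 and 29.1 CPM in Morula.

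Single cells were then looked at for CYP11A1 and HSD3B1. A read of CYP11A1 was found in 31 of 31 LB TE cells (100%, exact 95% binomial interval 88.8 to 100) and in 33 of 45 LB EPI cells (73.3%, 58.1 to 85.4), at median depths of 196521 and 196981 reads. With every cell thinned to 20000 reads, leaving out 2 LB EPI cells with fewer, the counts were 30 of 31 LB TE cells (96.8%, 83.3 to 99.9) and 9 of 43 LB EPI cells (20.9%, 10.04 to 36.0). At equal low depth nearly every trophectoderm cell thus still had a read and most epiblast cells had none, the same order as the CPM. In LB PE the thinned count was 6 of 20 cells, after 5 shallower cells were left out, against 13 of 25 as found. On day 8 CYP11A1 was read in 21 of 37 MB TE cells, 14 of 37 thinned, and in 14 of 51 MB ICM cells, 6 of 47 thinned. It was read in 1 of 39 EB cells. The intervals cover counting error only, since cells of a library are not replicates. The use of molecular identifiers is not stated, so reads may not be independent molecules either.

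HSD3B1 was read in 27 of 31 LB TE cells, 23 of 31 thinned, and in 32 of 45 LB EPI cells, 3 of 43 thinned. It was read in 32 of 37 MB TE cells, 18 of 37 thinned, and in 32 of 51 MB ICM cells, 9 of 47 thinned. HSD3B1 was therefore found in more MB TE cells than CYP11A1 was, while in LB TE the order was the other way round, 27 against 31 cells. In MB TE 21 cells had both genes, 11 had HSD3B1 without CYP11A1, 0 had CYP11A1 without HSD3B1 and 5 had neither. In LB TE 27 cells had both, 4 had CYP11A1 without HSD3B1, and 0 had HSD3B1 alone or neither. Of the 11 MB TE cells with HSD3B1 alone, 10 came from replicate 1 and 1 from replicate 2. STAR was read as well in 21 of the 27 LB TE cells with both genes and in 12 of the 21 MB TE cells with both. All 6 members were read in 6 LB TE cells and 2 MB TE cells.

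Levels were uneven between cells of the same class. In LB TE of replicate 3 CYP11A1 ran from 44.7 to 1062 CPM with a median of 241 CPM, and in replicate 5 from 58.5 to 318 CPM with a median of 135 CPM. HSD3B1 ran from 0 to 1141 CPM with a median of 116 CPM in replicate 3, and from 0 to 307 CPM with a median of 103 CPM in replicate 5. The 3 highest cells held 33.3% of the CYP11A1 and 53.0% of the HSD3B1 of LB TE in replicate 3. In MB TE of replicate 1 they held 88.5% of the CYP11A1 and 80.5% of the HSD3B1, and the medians were 0 and 9.56 CPM. Within LB TE the levels of the 2 genes were only weakly related across cells, with a Spearman rho of 0.15 over 21 cells of replicate 3 and -0.28 over 9 cells of replicate 5. This is no finding, since the cells are few and cells of a library are not replicates.

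**Figure D3:**
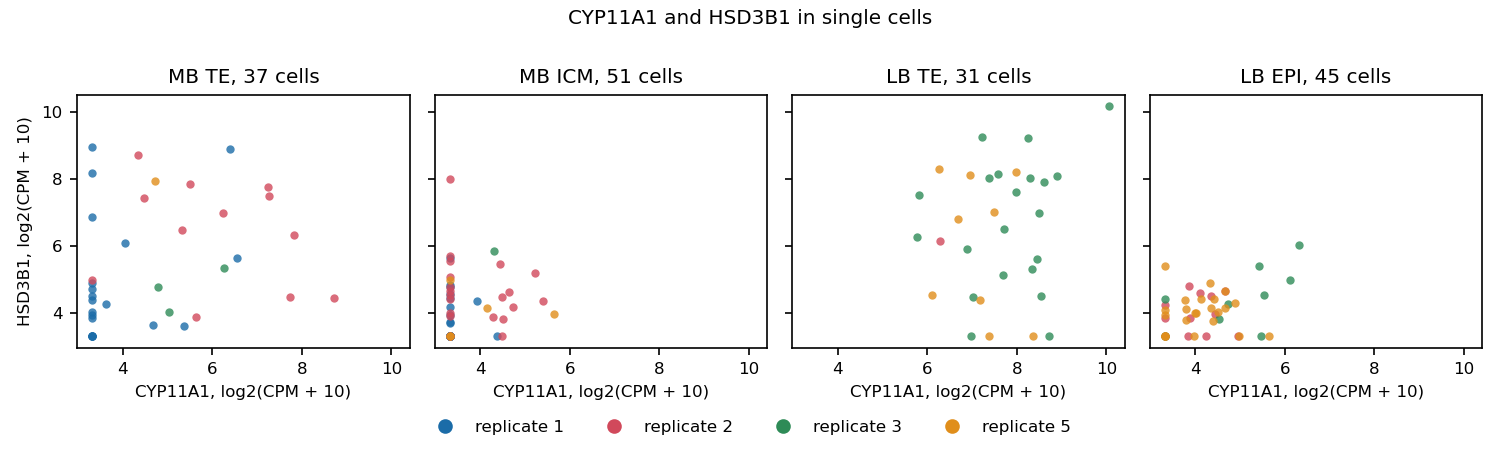
HSD3B1 against CYP11A1, both as log2(CPM + 10), in single cells of MB TE, MB ICM, LB TE and LB EPI, with a point per cell colored by library; cells without a read lie at the lower or left edge. LB TE cells all lie to the right of the left edge, with CYP11A1 in 31 of 31 cells, and MB TE holds 11 cells with HSD3B1 along that edge.

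Reads of both enzymes in other classes were set beside those of trophectoderm markers in the same libraries. LB EPI had 10.5% and 5.67% of the LB TE level of CYP11A1 in replicates 3 and 5, and 7.86% and 5.85% of the HSD3B1 level. LB PE had 12.5% and 4.23% for CYP11A1 and 9.47% and 9.37% for HSD3B1. MB ICM had 6.57% and 6.55% of the MB TE level of CYP11A1 in replicates 1 and 2, and 7.62% and 20.6% of the HSD3B1 level. Of the 14 listed trophectoderm markers, 7 were used here: KRT8, KRT18, DAB2, PLAC8, PTGS2, IFNT3 and PAG2. They had 3.57 to 9.24% of their LB TE level in LB EPI and 4.75 to 22.3% in LB PE. In MB ICM they had 2.90 to 12.3% of their MB TE level. Shares of the other listed markers were not worked out, and their class means differed. CDX2 had 40.1 CPM in LB TE and 1.03 CPM in LB EPI, but TFAP2C had 129 and 183 CPM. GATA3 had 515 CPM in MB TE and 144 CPM in MB ICM. The shares for CYP11A1 and HSD3B1 lay mostly within the ranges of the 7 markers used. CYP11A1 was above its range in LB EPI of replicate 3 and below it in LB PE of replicate 5. HSD3B1 was above its range in MB ICM of replicate 2. In that last group a single cell had 248 CPM of HSD3B1 and the next highest had 42.0 CPM. FDX1 and FDXR had higher shares, for example 29.2% and 25.9% for FDX1 and 47.2% and 38.0% for FDXR in LB EPI. How much of these reads came from RNA of other cells in the pool was not tested.

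**Figure D4:**
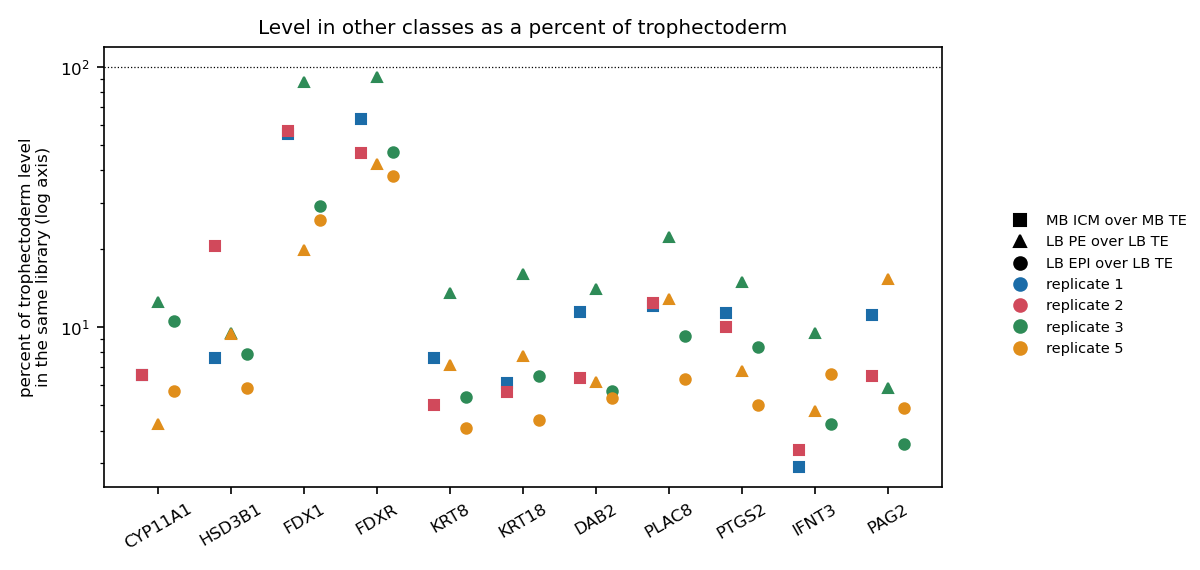
Level in MB ICM, LB PE and LB EPI as a percent of the trophectoderm level in the same library (vertical axis, log scale, dotted line at equal levels) for 4 of the 6 genes and 7 of the 14 listed trophectoderm markers. CYP11A1, from 4.23 to 12.5%, and HSD3B1, from 5.85 to 20.6%, lie at about the height of the 7 markers shown, and FDX1 and FDXR lie above most of them.

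The other genes of the pathway were followed through 5 lists. Of the later steroid enzymes, 20 of the 30 listed genes were tested. LB TE had 4 of them higher and 0 lower than LB EPI, where 8.26% of all genes were higher. It had 3 higher and 0 lower than LB PE, where 3.39% were higher, and MB TE had 3 higher and 0 lower than MB ICM, where 5.97% were higher. AKR1B1, an aldo-keto reductase, averaged 251 ± 32.6 CPM in LB TE (SD, n = 2), 44.5 ± 18.3 CPM in LB PE (n = 2) and 45.2 ± 2.69 CPM in LB EPI (n = 3), and its log2 change was 2.29 (limma adjusted p = 0.00314) against LB PE and 2.28 (limma adjusted p = 0.000683) against LB EPI. HSD17B11, a dehydrogenase of the same family as HSD17B1, averaged 376 ± 130 CPM in MB TE and 102 ± 23.4 CPM in MB ICM (n = 3 each; log2 change 1.70, limma adjusted p = 0.000490). SRD5A1, a steroid 5-alpha-reductase, was higher in MB TE than in MB ICM (1.36, limma adjusted p = 0.0109) and in LB TE than in LB EPI (1.43, limma adjusted p = 0.0109), and SULT1E1, the estrogen sulfotransferase, was higher in LB TE than in LB EPI at low levels (10.2 ± 2.75 and 0.918 ± 0.904 CPM, limma adjusted p = 0.0105). SULT1E1 was tested only because 1 LB TE average, at 12.1 CPM, passed the filter on low values, so its calls are a description. Both day 9 counts of this list include SULT1E1 and are a description as well. Without replicate 5 the LB PE calls of AKR1B1, HSD17B11 and SULT1E1 were lost (limma adjusted p = 0.185, 0.465 and 0.168), as were the LB EPI calls of HSD17B11, SULT1E1 and SRD5A1 (0.0847, 0.0889 and 0.121). HSD17B11 against LB PE was also lost without replicate 1 (0.0522) and SULT1E1 without replicate 2 (0.0624), and the MB ICM call of SRD5A1 was lost without replicate 2 or 3 (0.0627 and 0.0560).

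CYP19A1 and CYP17A1 gave few reads in trophectoderm. CYP19A1, the aromatase, had 0.312 and 3.54 CPM in LB TE and 2.67 ± 0.892 CPM in MB TE (n = 3), against 0 in the 3 MB ICM averages. CYP17A1, which makes androgen precursors, averaged 1.49 ± 2.10 CPM in LB TE (n = 2) and 0.604 ± 1.05 CPM in LB EPI (n = 3), with a log2 change of 0.10 (limma adjusted p = 0.917). CYP21A2, an enzyme of corticosteroid synthesis that the table lists under the older symbol CYP21, was at 0 to 0.674 CPM in LB TE. Against EB, MB TE was higher in AKR1B1 (log2 change 2.71, limma adjusted p = 0.0201) and lower in STS, the steroid sulfatase (-1.55, limma adjusted p = 0.0313). STS was tested only through that same EB average of 21.0 CPM, its highest average in any other class being 5.55 CPM, so its call is a description. The AKR1B1 call was lost without replicate 2, 3 or 5 (limma adjusted p = 0.142, 0.159 and 0.0509), and the STS call without replicate 1, 2, 3 or 5 (0.0604, 0.153, 0.120 and 0.0848).

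Of the 18 listed genes that deliver cholesterol, 14 were tested, and MB TE had 2 lower and 0 higher than MB ICM, where 4.11% of all genes were lower. SCARB1, a receptor that takes up cholesterol from lipoproteins, averaged 8.24 ± 5.38 CPM in MB TE and 51.0 ± 17.9 CPM in MB ICM (SD, n = 3 each; log2 change -1.83, limma adjusted p = 0.00315). LIPA, the lysosomal lipase that frees cholesterol from its esters, averaged 6.19 ± 5.71 CPM in MB TE and 28.3 ± 16.5 CPM in MB ICM (log2 change -1.13, limma adjusted p = 0.0353). The SCARB1 call was lost without replicate 2 (limma adjusted p = 0.114), and the LIPA call without replicate 1, 3 or 5 (0.240, 0.175 and 0.166). SOAT1, which stores cholesterol as esters, averaged 407 ± 15.4 CPM in LB TE and 216 ± 43.2 CPM in LB EPI. Its log2 change of 0.84 was just past the threshold (limma adjusted p = 0.0497) and was lost whichever library was left out, at limma adjusted p-values of 0.0510 to 0.205. TSPO, a cholesterol-binding protein of the outer mitochondrial membrane, did not pass in MB TE against MB ICM (-0.99, limma adjusted p = 0.0981). LB TE against LB PE gave 0 calls in this list, where 5.85% of all genes were called, with 2 genes at an unadjusted p under 0.05 in limma. For iron-sulfur assembly and mitochondrial P450 function 9 genes were tested. Of these, limma called 0 in MB TE against MB ICM, LB TE against LB PE and LB TE against LB EPI. In the same order 0, 1 and 1 had an unadjusted p under 0.05. Over all genes 10.1%, 5.85% and 15.2% were called in these comparisons. Whether these counts of 0 fall below those shares was not tested.

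Of the 22 listed regulators of steroid synthesis, 16 were tested. LB TE had 4 higher and 2 lower than LB EPI, where 8.26% of all genes were higher and 6.9% lower. It had 2 higher and 2 lower than LB PE, beside 3.39% and 2.46%, and MB TE had 3 higher and 0 lower than MB ICM, beside 5.97% and 4.11%. The LB EPI count includes DLX3 and TFAP2A, and the LB PE count includes DLX3 and GATA4. DLX3 and TFAP2A passed the filter on low values only through trophectoderm, and GATA4 only through LB PE. The day 9 counts are therefore a description. NR5A1, the main activator of steroid synthesis in gonads and adrenals, was at 0 in all 5 trophectoderm averages. NR5A2, the related receptor that acts in ovary and in pluripotent cells, averaged 6.58 ± 0.944 CPM in LB TE (n = 2) and 69.8 ± 31.0 CPM in LB EPI (SD, n = 3), a log2 change of -2.30 (limma adjusted p = 0.00311). PRKACB, a catalytic subunit of protein kinase A, was lower in LB TE than in LB EPI as well (-1.66, limma adjusted p = 0.00383). These calls were lost without replicate 3 for NR5A2 (limma adjusted p = 0.0827) and without replicate 5 for PRKACB (0.0515). GATA3, a transcription factor of trophectoderm, was higher by 3.08 in LB TE than in LB EPI (limma adjusted p = 3.52e-07), by 2.19 than in LB PE (limma adjusted p = 0.000161) and by 1.74 in MB TE than in MB ICM (limma adjusted p = 9.53e-05).

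GATA2, at 2.66 (limma adjusted p = 6.04e-05), and TFAP2C, at 1.204 (limma adjusted p = 0.00444), completed the regulators that were higher in MB TE than in MB ICM. DLX3, a homeobox gene of the placenta, was higher in LB TE than in LB EPI by 1.52 (limma adjusted p = 0.00128) and than in LB PE by 1.68 (limma adjusted p = 0.00251), the call against LB PE being lost without replicate 5 (0.148). DLX3 was tested only through trophectoderm averages, its highest average outside them being 6.67 CPM in LB EPI, so its calls are a description. GATA2, GATA3, TFAP2C and DLX3 are also on the trophectoderm marker list. GATA4 and GATA6, which are primitive endoderm markers as well, were lower in LB TE than in LB PE by log2 changes of -1.77 (limma adjusted p = 0.00251) and -1.51 (limma adjusted p = 0.0238), and both calls were lost without replicate 3 (0.0843 and 0.402). GATA4 was tested only through its LB PE averages of 20.1 and 40.7 CPM, so its call is a description. Among 7 tested steroid receptor genes of 14 listed, ESRRB was higher in MB TE than in MB ICM (1.19, limma adjusted p = 0.0235), a call lost without replicate 1, 2, 3 or 5 (0.0816, 0.125, 0.0539 and 0.0558), and the membrane progestin receptor gene PAQR5 was lower in LB TE than in LB PE (-1.77, limma adjusted p = 0.0169). PAQR5 had 0.766 and 1.01 CPM in LB TE, against 6.66 and 72.3 CPM in LB PE, and its log2 change was -2.90 without replicate 3. It was tested only through the LB PE average of 72.3 CPM in replicate 5, without which it did not pass the filter, so its call is a description. The call was lost with 50 CPM added, no filter, cells averaged on the log scale and limma-voom (adjusted p = 0.0685, 0.0575, 0.0637 and 0.0822). PGR, the nuclear progesterone receptor, was read at 3.91 and 5.31 CPM in LB TE and was at 0 in LB PE and LB EPI.

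The genes whose levels ran most like each member were named from the 16 averages, as a description of averages that share libraries and classes. For HSD3B1 these were ARSA, GPD2 and ANXA1, with Pearson r of 0.94, 0.94 and 0.93. For CYP11A1 they were SERPING1, IFNT3 and LOC112444603, at 0.93, 0.92 and 0.91. IFNT3, the interferon tau gene, averaged 401 ± 219 CPM in LB TE (n = 2), 167 ± 204 CPM in MB TE (n = 3), 32.2 ± 29.0 CPM in LB PE (n = 2) and 17.7 ± 5.30 CPM in LB EPI (SD, n = 3). CYP11A1 and HSD3B1 had an r of 0.85 with each other. STAR had an r of 0.70 with CYP11A1 and 0.69 with HSD3B1, and its nearest genes were GRAP, TNK1 and JUP at 0.90, 0.90 and 0.87. FDX1 had an r of 0.22 with CYP11A1 and 0.44 with FDXR, and ran closest to RNF5, USB1 and LRPAP1 at 0.93, 0.92 and 0.91. FDXR ran closest to TRPV5, TPD52 and SH3BGRL2 at 0.92, 0.91 and 0.90, and HSD17B1, read in few cells, to F8, SCN1A and NFE2L3 at 0.84, 0.83 and 0.81. The genes next to CYP11A1 in the gene table did not share its level in LB TE, where SEMA7A had 2.30 ± 0.511 CPM (n = 2) and CCDC33 was at 0.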

How the data were processed

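Polyadenylated RNA of lysed single cells was reverse transcribed and pre-amplified by PCR, and barcoded cDNAs were pooled into libraries, per the labels' protocols. Per the submitters' processing notes, the tools were HISAT2, featureCounts, Seurat and Trim Galore and the build was ARS-UCD1.2. Tool versions, strand setting, filters and the use of molecular identifiers are not stated there. Values as deposited are on a natural log scale: ln(1 + reads per 10000). With the log undone each cell summed to 10000, and 100% of values were whole reads within a tolerance of 0.1 reads, so each cell's 1 read value gave its depth. Of 288 cells listed by the authors, 2 came without values. The 2 rows that share a name were dropped, leaving 18823 genes. The 2 libraries of BE3-injected embryos were not used.

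CPM values were averaged by library and class (at least 3 cells), transformed as log2(CPM + 10) and fitted with limma 3.58.1 in R 4.3.3 (trend and robust options, statmod 1.5.0). A gene was tested if 1 average reached 10 CPM. The library was a random block, since cells of several classes came from the same library; the consensus correlation was 0.18. Tables were made with Python 3.11.15. Settings were varied as the closing section reports, including limma-voom on recovered reads, and the fit was tested on simulated data. The members, lists and tests were chosen with earlier results of these data known. Named were the 6 members, up to 4 called genes per list and comparison, and the 3 genes most like each member; TSPO, CYP17A1, CYP19A1, CYP21, NR5A1, PGR, SEMA7A and CCDC33 were named in addition, after their values were seen. A RefSeq gene table of assembly ARS-UCD2.0, which is not the authors' build, served only for names, overlaps and neighbouring genes.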

Additional observations from a re-analysis of the deposited data

Results flagged for a closer look

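Groups of 1 or 2 cells were left out of all comparisons, and in 7 instances with more than 3 reads a member stood higher in such a group than in any average of its class that was used. HSD3B1 had 239 CPM in the single MB TE cell of replicate 5 and 48.2 CPM in the single MB ICM cell of replicate 3. FDXR had 123 CPM in the 2 EB cells of replicate 1, 40.3 CPM in the 2 EB cells of replicate 6 and 38.6 CPM in the single MB ICM cell of replicate 3. FDX1 had 127 CPM in the 2 EB cells of replicate 1 and 77.1 CPM in the 2 LB PE cells of replicate 2. The HSD3B1 values rest on 44 reads in MB TE and 5 reads in MB ICM. Instances on 3 reads or fewer are not given.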

How the results depend on the processing

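Each comparison was refitted with an added value of 1 or 50 CPM, no filter on low genes, at least 5 cells per average, no replicate block, a fixed replicate block, cells averaged on the log scale, limma-voom, upper quartile scaling, each library left out, and, chosen after seeing the data, the Morula cell with granulosa genes left out, which changed no call of a member. Of 34 called gene and comparison pairs, 11 kept their call throughout and none changed sign. For LB TE against LB EPI the member count of 3 ranged from 2 to 4. For MB TE against MB ICM the count of 1 became 0 with no filter, 0 with the fixed replicate block (HSD3B1 adjusted p = 0.0509), 3 with cells averaged on the log scale, and 0 to 1 with a library left out. For LB TE against LB PE the count of 2 became 1 with 1 CPM added, 1 with limma-voom, 3 with cells averaged on the log scale (STAR added, whose call is a description) and 0 to 2 with a library left out. For LB TE against MB TE the count of 0 became 1 with cells averaged on the log scale. For MB TE against EB the count of 0 became 1 with 1 CPM added, at least 5 cells, no replicate block, cells averaged on the log scale or limma-voom, and was 0 to 1 with a library left out. With no replicate block the count for LB TE against LB EPI was 2, as FDXR lost its call (limma adjusted p = 0.0563), and beside MB TE against EB it changed no other member count. The fixed replicate block could not give MB TE against EB, and without replicate 4 no EB average was left. All genes called ranged from 635 to 1673 (MB TE against MB ICM), 851 to 3166 (LB TE against LB EPI), 168 to 1246 (LB TE against LB PE), 3 to 86 (LB TE against MB TE), 28 to 366 (MB TE against EB), 1 to 83 (EB against Morula) and 0 to 155 (gain of day 9 over day 8). Upper quartile scaling moved the median of all genes to 0.11 for LB TE against LB PE and 0.14 for LB TE against MB TE, where it was -0.02 and 0.03.

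Only differences without a call changed sign, and the cause was not tested. For EB against Morula, CYP11A1 came to 0.049 with the fixed replicate block (-0.75 to 0.049 with a library left out), FDX1 to 0.35 with that block and 0.18 averaged on the log scale (-0.019 to 0.35), HSD17B1 to 0.042 with that block (-0.57 to 0.042) and STAR to -0.39 with limma-voom. For HSD17B1, LB TE against LB EPI came to 0.036 with no replicate block and 0.019 averaged on the log scale (-0.21 to 0.21), LB TE against MB TE to -0.19 with the fixed block (-0.26 to 0.52), MB TE against EB to -0.83 with limma-voom (-0.041 to 0.17), MB TE against MB ICM to 0.11 with limma-voom (-0.58 to 0.12) and the gain of day 9 to -0.35 with limma-voom. For FDX1, LB TE against MB TE came to 0.21 with the fixed block, and the gain of day 9 to 0.41 with that block, 0.39 with limma-voom, 0.06 with upper quartile scaling and 0.045 with 1 CPM added (-0.32 to 0.26). For STAR the gain of day 9 ranged from -0.11 to 0.35. The limits are few libraries, 1 EB average, shallow LB PE cells and low reads of STAR and HSD17B1.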

Other observations

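The single LB TE cell of replicate 2, with 747345 reads, had 68.2 CPM of CYP11A1 and 61.6 CPM of HSD3B1, below both LB TE averages of each gene, with 60.2 CPM of FDX1, 30.8 CPM of FDXR, 4.01 CPM of STAR and no read of HSD17B1. The single LB EPI cell of replicate 1 had no read of CYP11A1, HSD3B1 or HSD17B1. Of the 4 EB cells outside replicate 4, 1 had HSD3B1, at 53.0 CPM from 2 reads, and none had CYP11A1.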
